A study of Mus musculus with 9 samples.

Results

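Scx, Mkx and Tnmd, the genes by which tendon and ligament cells are usually recognized, were followed together with the 4 tenascin genes Tnc, Tnn, Tnr and Tnxb and with Thbs4 in the tissue of the forming upper lip. These 8 genes were picked by their symbols in a deposited table of 54532 mouse genes, of which 30199 had at least 1 count. The libraries were made from lambdoidal junctions of C57BL/6J embryos, where the nasal prominences and the maxillary prominence come together and fuse. Each stage (E10.5, E11.5, E12.5) had 3 libraries, each from a pool of embryos, and no group carried a mutation or received a treatment. The change in E11.5 vs. E10.5 is called the first step, that in E12.5 vs. E11.5 the second step, and that in E12.5 vs. E10.5 the whole span. The labels do not say how the pools relate to litters, so p-values measure the spread between these libraries.

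Scx encodes a basic helix-loop-helix transcription factor that marks tendon and ligament progenitors, and Mkx encodes a homeobox factor (Mohawk) that acts in tendon differentiation and collagen production. Tnmd encodes tenomodulin, a transmembrane glycoprotein of differentiated tendon cells. Tenascins are large modular glycoproteins that modulate the adhesion of cells to the extracellular matrix, and thrombospondin-4, the product of Thbs4, is a matrix glycoprotein of tendon and muscle. In the head, tendons and ligaments form from cranial neural crest mesenchyme, the same source as most mesenchyme of the facial prominences.

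The total count per library was 16581009 to 20836804. The library labelled E10.5 replicate 3 stood apart from the other E10.5 libraries. Markers of facial mesenchyme (8 genes) summed to 1140 CPM (counts scaled to the library size after edgeR's TMM method) there and to 1917 and 1920 CPM in replicates 1 and 2. Markers of surface epithelium summed to 713 CPM there and to 395 and 446 CPM in the others, and markers of endothelium (6 genes) to 112 CPM there and to 287 and 281 CPM. Its levels also fell with the GC content of genes (Spearman correlation −0.399 between GC content and each gene's deviation from its mean over libraries), whereas replicates 1 and 2 had 0.246 and 0.241. Of the later libraries, E11.5 replicate 1 had −0.249 and E12.5 replicate 1 had 0.217, and the others lay between −0.0557 and 0.0624. By stage, the facial mesenchyme sum was 1140 to 1920 CPM, 2585 to 2756 CPM and 2630 to 2944 CPM, and its part in the changes given here was not tested. The changes of the 8 genes that rest on E10.5, and the counts of called genes in the lists around them, are given with and without this library. Without it, 4.75% of all genes tested were called higher and 5.04% lower at the first step, and 10.4% and 6.23% over the whole span. In bulk RNA, fewer cells of a type and less RNA per cell cannot be told apart.

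Tnmd was the gene with the sharpest onset, and the primers designed in the study for its transcript show which part of it is used in an assay. Both match the coding sequence of the 1353-base Tnmd transcript in GENCODE vM21 (GRCm38) and no other gene. The forward primer lies in exon 3 of 7 at chrX:133859746-133859765 (plus strand) and the reverse primer in exon 7 at chrX:133865350-133865369 (read on the minus strand), 715 bases apart end to end on the spliced transcript.
Tnmd forward primer: ctacagcaacggcgagaaga
Tnmd reverse primer: gcaaggcatgatgacacgac

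The stretches before the start sites of Tnmd, Tnc and Tnn are shown because these 3 genes had the largest changes of the 8. The sequences are RefSeq's (GRCm38.p6), which had an upstream window for 6 of the 8 genes. They are written in the direction of transcription and end where the gene starts in the deposited table. Capitals mark CANNTG, the E-box letters that basic helix-loop-helix factors such as the Scx product bind, which read the same on both strands. Tnmd is shown at chrX:133850758-133850979 (plus strand), Tnc at chr4:64047016-64047265 (minus strand) and Tnn at chr1:160153581-160153825 (minus strand).
Tnmd: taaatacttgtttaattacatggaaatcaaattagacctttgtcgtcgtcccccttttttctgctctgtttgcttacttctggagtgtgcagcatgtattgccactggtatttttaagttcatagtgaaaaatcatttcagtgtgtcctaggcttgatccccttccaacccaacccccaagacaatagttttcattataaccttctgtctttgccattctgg
Tnc: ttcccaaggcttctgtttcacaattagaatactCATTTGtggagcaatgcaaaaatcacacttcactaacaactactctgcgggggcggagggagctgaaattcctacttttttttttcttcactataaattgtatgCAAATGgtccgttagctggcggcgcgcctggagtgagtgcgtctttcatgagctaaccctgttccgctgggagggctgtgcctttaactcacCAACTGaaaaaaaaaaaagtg
Tnn: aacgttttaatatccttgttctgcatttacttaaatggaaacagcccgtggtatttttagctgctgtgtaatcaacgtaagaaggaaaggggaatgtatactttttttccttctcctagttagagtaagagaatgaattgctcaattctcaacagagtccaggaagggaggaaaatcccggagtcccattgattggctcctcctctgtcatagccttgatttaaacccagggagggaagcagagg

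The Tnc window held 3 such matches, and those of Tnmd and Tnn held 0. A further RefSeq start of Tnc, which lies within the gene, has its window at chr4:64046937-64047186, and that window held 2 of the same matches. Among 32851 RefSeq windows of 250 bases, 66.2% held at least 1 match and 12.2% held 3 or more. The Thbs4 and Tnxb windows held 1 match each and the Tnr window 0. A match is a description of letters, and a window without one says only that these letters are not in that stretch.

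Of the transcription factors, Scx (ENSMUSG00000034161, chr15:76457452-76459458, plus strand) was highest at E12.5. The E10.5 libraries held 129, 79 and 34 counts, the E11.5 libraries 144, 187 and 155, and the E12.5 libraries 575, 306 and 463. Its E12.5 libraries all lay above those of the earlier stages, and the lowest count was that of E10.5 replicate 3. The mean level by stage was 4.79 ± 2.79 CPM (SD, n = 3), 8.30 ± 0.634 CPM and 25.5 ± 8.16 CPM.

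At the second step, Scx was upregulated by 1.61 on the log2 scale (SE 0.23, adjusted p = 0.00132, quasi-likelihood test of edgeR, Benjamini-Hochberg adjusted). At the first step the log2 fold change was 0.80 (SE 0.39, adjusted p = 0.225, edgeR's quasi-likelihood test), although the libraries of these stages did not overlap. That value was 0.45 without E10.5 replicate 3 and 1.31 without E10.5 replicate 1, with adjusted p of 0.107 and 0.0535 in the same test. When trends with GC content were removed library by library and the replicate number entered as a block, the value was 1.01 with an adjusted p of 0.0325, past both thresholds. Over the whole span, Scx rose by 2.42 (SE 0.41, adjusted p = 0.00167, edgeR's quasi-likelihood test), and by 2.07 without E10.5 replicate 3.

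Scx lies inside intron 3 of Bop1, a ribosome biogenesis gene read on the opposite strand, with no exon in common. The length given for Scx in the deposited table, 2007 bases, equals that of a transcript with a retained intron, while the protein-coding transcript of 2 exons has 1035 bases. The kit does not mark strand, so reads of unspliced Bop1 RNA over Scx could not be told apart from Scx reads. Bop1 was at 113 ± 18.8 CPM in the E10.5 libraries, at 71.7 ± 4.02 CPM one stage later, and between 65.1 and 77.0 CPM at E12.5. Its log2 fold change was −0.65 over the whole span and −0.01 at the second step. These counts are of Bop1 exons and do not measure unspliced RNA, whose part in the Scx counts was not tested.

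Mkx (ENSMUSG00000061013, chromosome 18, minus strand) was not called in any comparison and was not tested against Scx. It had 112, 112 and 129 counts in the E10.5 libraries, 219, 261 and 209 in those of E11.5, and 162, 216 and 216 in those of E12.5. The E10.5 libraries lay below all later ones, and those of E11.5 and E12.5 overlapped. Means were 7.05 ± 0.818 CPM, 11.8 ± 0.771 CPM and 11.2 ± 1.91 CPM in the order of the stages. The log2 fold change at the first step was 0.74 (SE 0.16, adjusted p = 0.0242, edgeR's quasi-likelihood test), past the p threshold of 0.05 but under the log2 fold change of 1 that the study also required of a differentially expressed gene (DEG). It was −0.08 (SE 0.17) at the second step with an adjusted p of 0.792, and 0.68 (SE 0.23) over the whole span with an adjusted p of 0.0556. Without E10.5 replicate 3 these values were 0.85 at the first step and 0.78 over the whole span, with adjusted p of 7.66e-04 and 0.0254 and still under the fold threshold. The adjusted p at the first step was 0.0698 and 0.0864 without E10.5 replicate 1 or 2, and 0.105, 0.101 and 0.0933 without E11.5 replicate 1, 2 or 3 (edgeR's quasi-likelihood test). Mkx was thus not past the p threshold without any 1 of these 5 libraries, while its log2 fold change stayed between 0.69 and 0.80. Calls over all genes were fewer in these fits too, with 934 and 687 without E10.5 replicate 1 or 2. They were 395, 663 and 453 without E11.5 replicate 1, 2 or 3, in place of 954. About 4.91% of the exon length of Mkx is shared with AC148004.2, a transcript on the same strand.

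Tnmd (ENSMUSG00000031250, chrX:133850980-133865577, plus strand) was not detected at E10.5, with 0 counts in each of the 3 libraries. The E11.5 libraries held 0, 0 and 1 counts, and those of E12.5 held 167, 137 and 176. The E12.5 mean was 9.10 ± 1.58 CPM. Against a limit of 3 counts per library, the E12.5 mean was at least 49.0-fold higher than that of E10.5. Against the 1 count at E11.5, the ratio of summed counts was 528, with an exact 95% counting interval of 94.3 to 20895. Tnmd was upregulated at the second step (adjusted p = 1.17e-05) and over the whole span (adjusted p = 1.08e-05, edgeR's quasi-likelihood test for both). At the first step it could not be tested at this depth, which limits what can be said to counts near 0 at both stages. Intervals and limits cover counting error only, since reads were amplified by PCR without molecular identifiers.

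**Figure D1:**
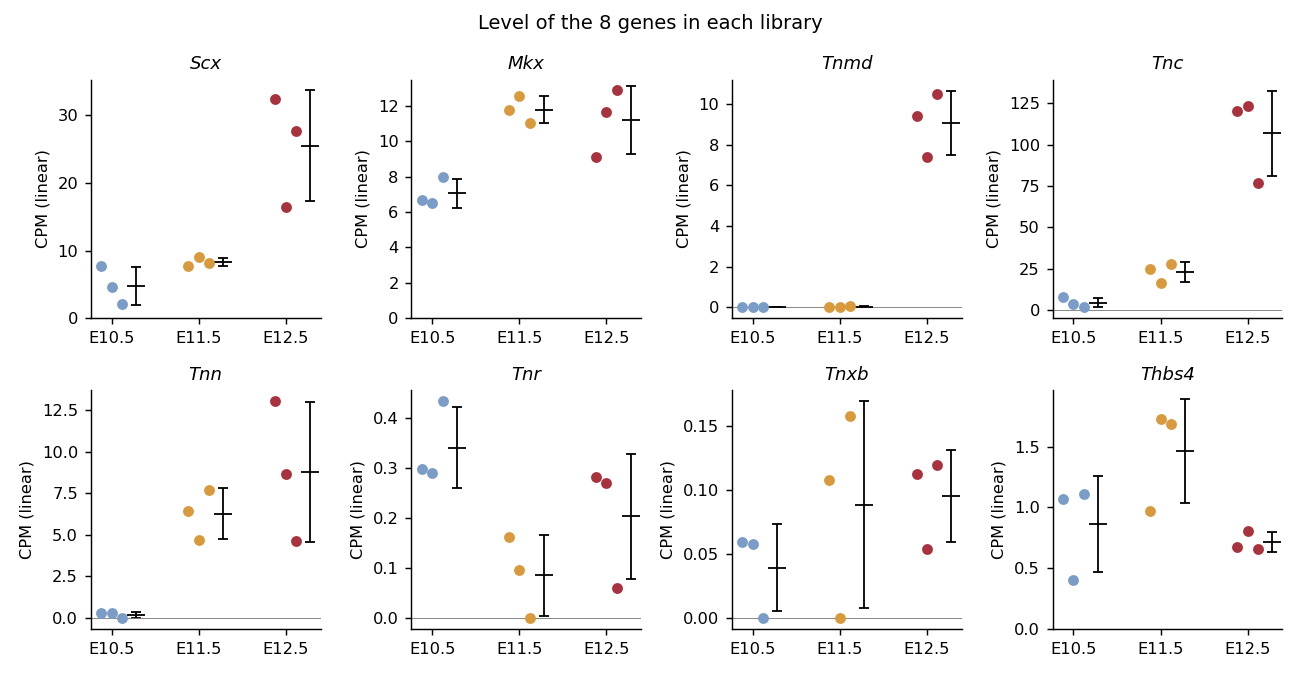
Level of each of the 8 genes in the 9 libraries, in CPM on a linear axis that differs between panels. Points are libraries in the order of replicates 1 to 3, and black bars give the mean and SD of 3 libraries. Tnmd stands at 0 to 0.0527 CPM at E10.5 and E11.5 and at 7.39 to 10.5 CPM at E12.5, Tnc climbs at both steps, Tnn appears at E11.5, and Tnr, Tnxb and Thbs4 stay under 2 CPM.

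Among the tenascins, Tnc (ENSMUSG00000028364, chr4:63959785-64047015, minus strand), which is made widely in embryonic mesenchyme and in developing tendon, increased at both steps. Its counts were 129, 63 and 33 in the E10.5 libraries, 455, 337 and 531 in the E11.5 libraries, and 2131, 2289 and 1291 in the E12.5 libraries. No libraries of different stages overlapped. Means were 4.46 ± 2.89 CPM, 22.9 ± 6.04 CPM and 107 ± 25.9 CPM.

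At the first step, Tnc was upregulated by 2.36 on the log2 scale (SE 0.43, adjusted p = 0.0127, edgeR's quasi-likelihood test). Without E11.5 replicate 1 or replicate 3, the adjusted p was 0.0718 or 0.0631 with log2 fold changes still above 2, so this call rests on both libraries. Calls over all genes were fewer there too, with 1.45% or 1.65% called higher in place of 3.46%. Without E10.5 replicate 3 the log2 fold change of Tnc was 2.02 with an adjusted p of 1.07e-04. At the second step, Tnc rose by 2.22 (SE 0.23, adjusted p = 2.28e-04, edgeR's quasi-likelihood test), and over the whole span by 4.59 (SE 0.41, adjusted p = 2.60e-05), or 24.1-fold. The latter was 4.25 without E10.5 replicate 3. About 2.27% of Tnc's exon length overlaps 8030451A03Rik on the opposite strand.

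Tnn (ENSMUSG00000026725, chr1:160085029-160153580, minus strand), which encodes tenascin-N, a tenascin known mainly from developing bone and periosteum, switched on one stage before Tnmd. Reads were few in the E10.5 libraries, with 5, 5 and 0 counts, followed by 120, 97 and 146 counts in the E11.5 libraries and 231, 160 and 78 in those of E12.5. All E11.5 libraries lay above all E10.5 libraries, and the E12.5 libraries spread over and beyond the range of E11.5. Means were 0.196 ± 0.170 CPM, 6.27 ± 1.52 CPM and 8.76 ± 4.18 CPM.

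At the first step the log2 fold change of Tnn was 4.94 (SE 0.54, adjusted p = 0.00198, edgeR's quasi-likelihood test), the 10th highest of 15708 genes tested, and it was 4.39 without E10.5 replicate 3. At the second step it was 0.48 (SE 0.32) with an adjusted p of 0.343. Over the whole span Tnn rose by 5.42 (SE 0.62, adjusted p = 1.30e-04, edgeR's quasi-likelihood test), and by 4.88 without E10.5 replicate 3.

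Tnr and Tnxb stayed close to the limit of detection, and neither passed the count filter in any comparison. Tnr (ENSMUSG00000015829, chr1:159523769-159931729, plus strand), a tenascin of the nervous system, had 5, 5 and 7 counts in the E10.5 libraries, 3, 2 and 0 in those of E11.5, and 5, 5 and 1 in those of E12.5. The ratio of its summed counts at the first step was 0.253 with a 95% counting interval of 0.0730 to 0.714. At the second step this ratio was 2.42 with an interval of 0.775 to 8.88. These intervals leave out the spread between libraries, so neither shows a change between the stages. About 3.44% of its exon length overlaps the antisense gene Gm38039. Tnxb (ENSMUSG00000033327, chr17:34670535-34719815, plus strand), a tenascin of mature connective tissue, had at most 3 counts in each of the 9 libraries. A partial pseudogene copy of Tnxb exists, and how reads with several matches were counted is not given in the sources used here, so its count is uncertain. Differences of Tnxb between stages were not detectable at this depth.

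Thbs4 (ENSMUSG00000021702, chr13:92751590-92794818, minus strand) was low and had its highest mean at E11.5. The E10.5 libraries gave 18, 7 and 18 counts, the E11.5 libraries 18, 36 and 32, and the E12.5 libraries 12, 15 and 11. The E12.5 libraries lay below those of E11.5, while those of E10.5 overlapped both. Means were 0.864 ± 0.397 CPM, 1.46 ± 0.428 CPM and 0.714 ± 0.0830 CPM. The log2 fold change was 0.77 (SE 0.44) at the first step, −1.03 (SE 0.37) at the second step and −0.26 (SE 0.48) over the whole span, with adjusted p of 0.303, 0.0892 and 0.736 in edgeR's quasi-likelihood test. Without E10.5 replicate 3 the first-step value was 0.99 and that of the whole span −0.03, and neither was called.

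Counted over the genes, 2 of the 5 that could be tested were upregulated at the first step (Tnc and Tnn), where 3.46% of all 15708 genes tested were called higher and 6.07% were called in either direction. At the second step, 3 of 6 were upregulated (Scx, Tnmd and Tnc), against 4.14% of 15808 genes called higher and 5.1% in either direction. Over the whole span, 4 of 6 were upregulated (Scx, Tnmd, Tnc and Tnn), against 9.97% of 15899 genes called higher and 15.0% in either direction. The genes were chosen with earlier results of these data known, and Tnmd and Tnn pass the count filter through the stages at which they are high. Of those tested, 4, 4 and 5 had libraries that did not overlap between the stages at the first step, the second step and over the whole span, where 36.7%, 35.3% and 42.4% of all genes did not. Without the fold threshold the counts were 3, 3 and 4, against 11.8%, 12.2% and 24.6% of all genes. In no comparison was a member called lower by edgeR's quasi-likelihood test or by DESeq2 (0 of those tested, against 2.61%, 0.962% and 5.08% of all genes by edgeR), and Thbs4 at the second step was the 1 member with a lower value at an unadjusted p under 0.05. The 3 comparisons share libraries, so their values are not independent of each other.

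**Figure D2:**
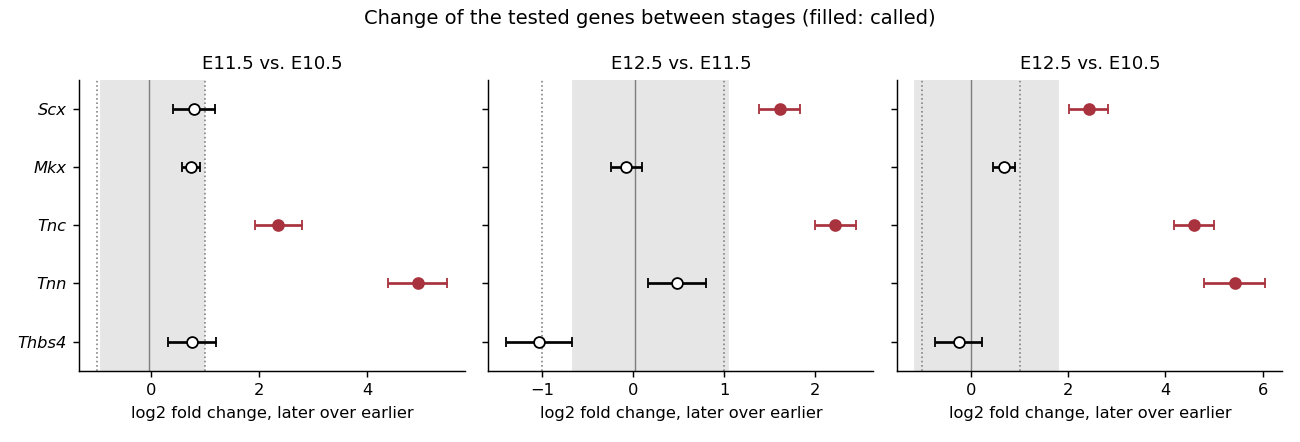
Log2 fold change (later over earlier stage) with its SE for 5 of the genes in the 3 comparisons, each from 3 libraries against 3. Filled points passed both thresholds, dotted lines mark a log2 fold change of 1 in either direction, the grey line is the median of all genes tested and the grey band spans their 5th to 95th percentiles (−0.93 to 0.98, −0.66 to 1.04 and −1.16 to 1.79). Tnc lies outside the band in all 3 panels, Scx enters the called range at the later step and Tnn at the earlier one. Tnmd is left out because its fitted value depends on the count added to 0.

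Whether a gene moved differently in the 2 steps was tested on all 9 libraries as the change of the second step minus that of the first step. Tnn was past the threshold, with a difference of −4.44 on the log2 scale (SE 0.81, adjusted p = 0.0244, edgeR's quasi-likelihood test). Among all 16375 genes tested, 1.18% passed. Without E11.5 replicate 1 the Tnn difference was −4.40 with an adjusted p of 0.125, and without E11.5 replicate 3 it was −4.09 with 0.145, so it too rests on both. Over all genes, 31 and 27 passed in these fits, in place of 194. The difference was 0.83 (SE 0.62) for Scx, −0.81 (SE 0.32) for Mkx, −0.13 for Tnc and −1.79 for Thbs4, with adjusted p of 0.652, 0.320, 0.952 and 0.327. For Tnmd no such difference is given, since both earlier stages were at the limit of detection. That Scx was called at the later step alone is therefore not shown to be a difference between the steps.

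Levels of different genes were compared on the deposited FPKM, which are per gene length. At E10.5, Scx (2.36 ± 1.36 FPKM) and Mkx (1.78 ± 0.210 FPKM) were the highest of the 8 and overlapped each other. Tnc (0.566 FPKM) and Thbs4 (0.260 FPKM) followed with overlapping ranges, and the other genes stood at 0.0333 FPKM or less. At E11.5 Scx (4.10 ± 0.314 FPKM) lay above Mkx (2.97 ± 0.195 FPKM) and Tnc (2.92 ± 0.769 FPKM), which overlapped, and Tnn (1.07 ± 0.259 FPKM) lay above Thbs4 (0.440 ± 0.129 FPKM).

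At E12.5 the order was led by Tnc (13.5 ± 3.24 FPKM) and Scx (12.5 ± 3.94 FPKM), whose ranges overlapped. Tnmd followed at 6.62 ± 1.15 FPKM, then Mkx at 2.82 ± 0.497 FPKM, Tnn at 1.48 ± 0.697 FPKM and Thbs4 at 0.214 ± 0.0254 FPKM, each apart from its neighbours. Tnr and Tnxb ended the order with overlapping ranges. Tnmd thus moved from 0 counts to the third place among these genes within the stages sampled. If the Scx counts are divided by the 1035 bases of its protein-coding transcript in place of 2007 bases, a choice made after seeing the data, Scx stood at 24.2 ± 7.64 FPKM at E12.5 (15.7 to 30.6 FPKM), just above the highest Tnc library.

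The summed FPKM of the 4 tenascins was 0.629 ± 0.383 in the E10.5 libraries, lay between 2.87 and 4.88 one stage later, and reached 15.0 ± 3.84 in the E12.5 libraries. Tnc made up the greater part of it at every stage, with 89.0% ± 3.36, 72.9% ± 0.772 and 90.3% ± 2.75 in the order of the stages. The Tnn share was 4.63% ± 4.56, then 26.8% ± 0.889, then 9.54% ± 2.73.

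The share of Tnn was thus highest at E11.5, where the 3 libraries lay between 25.9% and 27.7%, apart from the 0 to 9.11% of E10.5 and the 7.46 to 12.6% of E12.5. For both steps and both genes the two-sided exact permutation test gave p = 0.1, the smallest that 3 libraries against 3 allow, and 0.2 after Benjamini-Hochberg adjustment over 12 comparisons. The shares at E10.5 rest on at most 5 counts of Tnn per library, and without E10.5 replicate 3 their means were 6.95% for Tnn and 89.2% for Tnc. Tnr made up 5.88% ± 4.84 at E10.5, on 5 to 7 counts per library, and 0.0958% at E12.5.

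**Figure D3:**
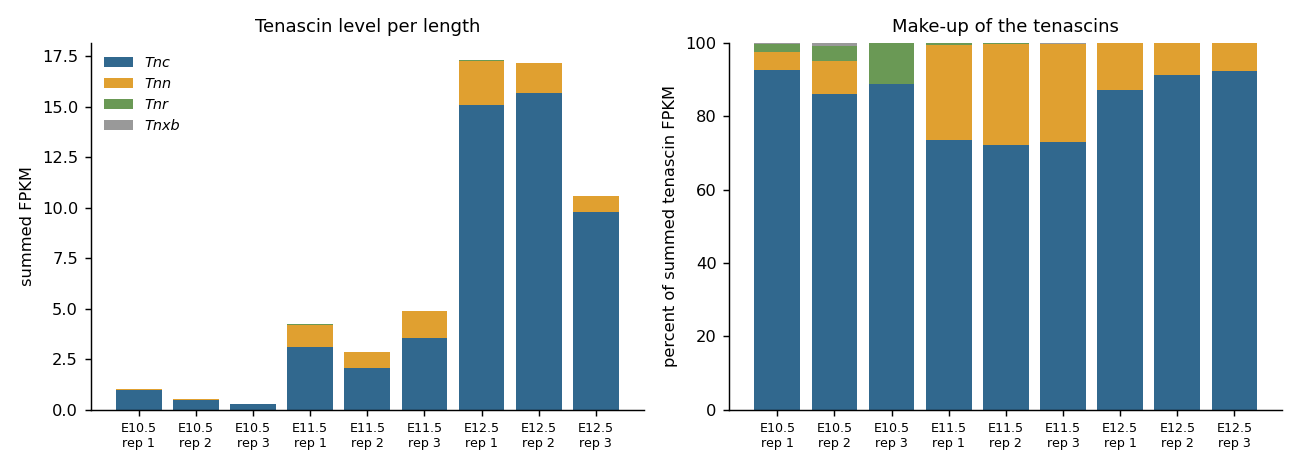
Tenascin make-up of each library from the deposited FPKM, with the summed FPKM of the 4 genes on the left and the percent of that sum on the right. Each bar is 1 library. The sum grows from 0.294 to 1.05 FPKM at E10.5 to 10.6 to 17.3 FPKM at E12.5, and the Tnn part is widest in the 3 libraries of E11.5.

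The close relatives of these genes give a comparison within families. Cnmd, which encodes chondromodulin, the relative of tenomodulin found in cartilage, was likewise low before E12.5. It had 1 count in each E10.5 library, 4 to 16 counts at E11.5 and 256 to 313 counts at E12.5. Its mean went from 0.560 ± 0.334 CPM to 16.0 ± 2.47 CPM at the second step, a rise of 4.83 on the log2 scale (SE 0.33, adjusted p = 3.08e-05, edgeR's quasi-likelihood test). Without E10.5 replicate 3, Cnmd was called higher at the first step too (3.10, adjusted p = 0.0215, same test), on these low counts.

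Of the thrombospondins, Thbs2 rose at both steps, from 1.77 ± 0.525 CPM at E10.5 to 6.39 ± 1.71 CPM and 21.7 ± 1.73 CPM, with log2 fold changes of 1.85 (SE 0.30) and 1.76 (SE 0.19). This differs in course from Thbs4, although Thbs2 and Thbs4 were not tested against each other. Thbs1 stood at 106, 123 and 174 CPM and Thbs3 at 20.7, 17.8 and 22.8 CPM in the order of the stages, and neither was called. Comp, the thrombospondin of cartilage and tendon, was too low to be tested.

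Among the Iroquois genes, which are homeobox relatives of Mkx, Irx6 had its highest mean at E11.5, as Thbs4 did. It rose by 4.79 (SE 0.44) at the first step, from 1 to 4 counts per E10.5 library, and fell by 1.17 (SE 0.28) at the second step. Irx5 rose by 1.02 (SE 0.26) at the earlier step, a call lost without E10.5 replicate 3 (0.78, under the fold threshold), and Irx4 by 1.24 (SE 0.19) at the later one. Without that library, Irx4 was called higher at the earlier step too (1.17, adjusted p = 0.00427, edgeR's quasi-likelihood test). Irx1 rose by 1.30 (SE 0.32) over the whole span, while Irx2 and Irx3 were not called. Tcf15, a basic helix-loop-helix relative of Scx, stood at 11.3 ± 6.40, 9.15 ± 2.11 and 5.69 ± 2.48 CPM and was not called, but was called lower over the whole span without E10.5 replicate 3 (−1.37, adjusted p = 0.0128, edgeR's quasi-likelihood test). Over the whole span, 6 of the 11 relatives tested were upregulated, where 9.97% of all genes were called higher, with a median log2 fold change of 1.03 beside −0.01 over all genes tested. With E10.5 replicate 3 left out, 5 of 11 were upregulated and 1 downregulated, with a median of 0.78.

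RNA of genes listed for the matrix of tendon and ligament increased broadly. Of 28 genes listed for tendon and ligament matrix (collagens, small leucine-rich proteoglycans, fibrillins and crosslinking enzymes), 15 of 26 tested were upregulated at the first step, 16 of 28 at the second step and 24 of 28 over the whole span, where 3.46%, 4.14% and 9.97% of all genes were called higher. Leaving out E10.5 replicate 3, 13 of 26 were upregulated at the first step and 23 of 28 over the whole span. The median log2 fold changes were 1.19, 1.09 and 2.45, beside −0.03, 0.02 and −0.01 over all genes tested. The largest rises over the whole span were those of the proteoglycan genes Aspn (asporin, 7.92, SE 0.48) and Ogn (osteoglycin, 7.60, SE 0.30) and of the collagen gene Col6a1 (4.64, SE 0.41). These genes are expressed by many mesenchymal cells besides those of tendon. Aspn had 0 to 3 counts per library at E10.5, at the limit of detection, and Ogn had 4 to 9. The sizes of the Aspn and Ogn rises are therefore uncertain. The summed level of the list was 1422 CPM in E10.5 replicate 3 and 2715 and 2658 CPM in replicates 1 and 2, with 6663 to 8741 CPM at E12.5.

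Signals and early regulators of tendon moved both ways. Over the whole span, 8 of 21 tested were upregulated and 2 downregulated, where 9.97% of all genes were called higher and 5.08% lower, with a median of 0.32. When E10.5 replicate 3 was left out, 6 were upregulated and 5 downregulated with a median of 0.16, the added ones being Etv4, Etv5 and Gdf6 at −1.10, −1.03 and −1.09. Gdf7 (5.40, SE 0.77), a growth factor of the BMP family that can induce tendon, and the zinc finger genes Osr1 (4.98, SE 0.43) and Osr2 (24.2-fold, SE 0.28 on the log2 scale) had the largest rises. Gdf7 had 0 to 4 counts per library at E10.5, so the size of its rise is uncertain. Mstn, which encodes myostatin, fell by 3.98 (SE 0.66), and the growth factor gene Fgf8 fell by 2.82 (SE 0.23). TGF-beta signaling is known to recruit tendon progenitors, and its genes on the list are named here after their values were seen. Tgfb2 rose from 21.3 ± 5.40 CPM at E10.5 to 105 ± 24.0 CPM at E12.5, Tgfb3 from 12.8 ± 3.80 CPM to 40.8 ± 5.49 CPM, and the receptor gene Tgfbr2 from 19.4 ± 6.50 CPM to 54.4 ± 6.87 CPM. These 3 were called without E10.5 replicate 3 as well. The other 4 TGF-beta genes of the list were not called in any comparison. In the order of the stages, Tgfb1 was at 14.5, 20.3 and 23.7 CPM and the receptor gene Tgfbr1 at 313, 319 and 218 CPM. The signal transducer gene Smad2 was at 68.4, 68.3 and 56.8 CPM, and Smad3 at 175, 195 and 181 CPM.

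Receptors and partners of the tenascins also moved both ways, with 7 of 19 upregulated and 2 downregulated over the whole span (9.97% and 5.08% of all genes) and a median of 0.50. Without E10.5 replicate 3, 5 of 20 were upregulated and 1 was downregulated, with a median of 0.58. Acan (5.83, SE 0.41), the proteoglycan aggrecan, Anxa2 (3.67, SE 0.22), an annexin that binds tenascin-C, and Egfr (2.17, SE 0.22), the receptor for epidermal growth factor, had the largest rises. The size of the Acan rise is uncertain, since it had 2 to 4 counts per library at E10.5. Ncan, a proteoglycan of the nervous system, fell by 1.72 (SE 0.24), and Itgb8, an integrin subunit, fell by 1.55 (SE 0.38), a call lost without E10.5 replicate 3 (−0.96).

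Skeletal muscle, to which tendon attaches, was hardly represented. Of 18 muscle markers, 5 could be tested in each comparison. The myogenic factor genes Myod1 and Myog were not tested in the main comparisons. In the order of the stages, Myod1 was at 0.0593, 0.0714 and 0.358 CPM and Myog at 0.0387, 0.0710 and 0.768 CPM, both highest at E12.5. Myog, named after its values were seen, was called higher by DESeq2 at the second step (3.44, adjusted p = 0.0172) and over the whole span (4.27, adjusted p = 0.0148), and over the whole span by edgeR's quasi-likelihood test without E10.5 replicate 3 (3.56, adjusted p = 0.0330). At E12.5 the muscle actin gene Acta1 was at 0.114 CPM, and Chrng was at 0 counts. Pax7, a marker of muscle progenitors that neural crest cells also express, was at 70.3 CPM at E12.5 and made up most of the summed 69.9 to 88.2 CPM of the list. Des, the muscle intermediate filament gene, fell by 4.22 over the whole span (SE 0.43, adjusted p = 5.85e-05, edgeR's quasi-likelihood test). All muscle markers but Pax7 thus had means of at most 1.72 CPM at the stage at which Scx and Tnmd were highest, and the part of muscle in the changes of the 8 genes was not tested.

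**Figure D4:**
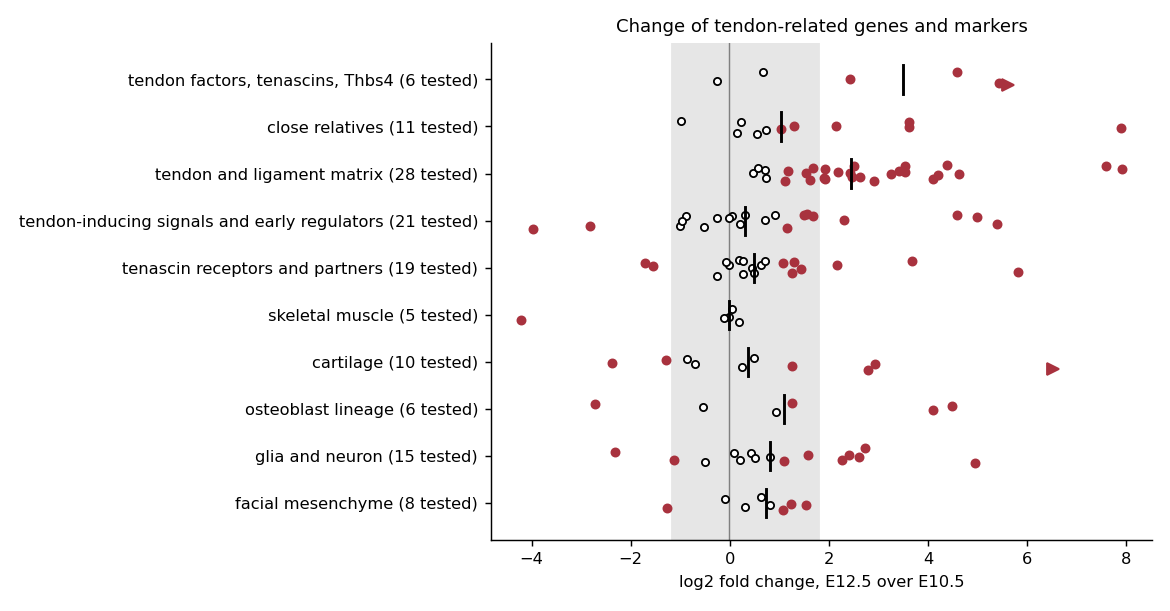
Log2 fold change over the whole span of each tested gene in the lists around the 8 genes, with 1 point per gene and a black bar at the median of the list. Filled symbols passed both thresholds, triangles are lower bounds for genes at 0 counts at E10.5 (Tnmd and Matn4), the grey line is the median of all genes tested and the grey band their 5th to 95th percentiles. All tested genes of tendon and ligament matrix lie above 0, with a median of 2.45. The skeletal muscle list has a median of −0.01 over the 5 of its 18 genes that could be tested.

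Genes with the most similar course were ranked by Pearson correlation of log2 CPM over the 9 libraries, among 14514 genes with a mean of at least 1 CPM. The libraries and stages are shared by all genes, so these values are descriptions. The closest to Tnc were the matrix metalloproteinase genes Mmp14 (0.9975) and Mmp11 (0.9966) and Olfml1. The closest to Scx were Ier5 (0.9913) and Socs1, and to Mkx C630043F03Rik (0.969), Nicn1 and Rhoq. The closest to Tnmd were Wnt16 (0.9911), Wwp2 and Nog, to Tnn Bcl11a (0.9952), Il1rl2 and Ldb2, and to Thbs4 Fen1 (0.9105), F8 and Ptp4a1. By Spearman correlation none of the 3 neighbours of Tnmd was among its first 100 genes, whereas all 3 of Tnc and all 3 of Thbs4 were. Wnt16, a Wnt ligand gene, had a mean of 0.571 CPM at E11.5 and 5.64 CPM at E12.5.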

How the data were processed

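RNA of lambdoidal junction tissue was sequenced by the authors after preparation with a TruSeq RNA kit, as 3 libraries per stage. Per the labels and the study's methods, reads were mapped with HISAT2 2.0.5 to mm10 and counted per gene with featureCounts. Strand and multiple-match settings are not given in the sources used here. The authors deposited whole-number counts, FPKM and a gene length for each gene. They also deposited fold changes and p-values of their own DESeq2 comparisons, which were not used.

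For each pair of stages, the counts of the 6 libraries were tested with filterByExpr, TMM and edgeR's quasi-likelihood test (R 4.3.3, edgeR 4.0.16, limma 3.58.1), two-sided, with Benjamini-Hochberg adjustment over all genes tested. Calls needed an adjusted p not above 0.05 together with a log2 fold change of 1 or more in size. The difference between the steps was fitted on 9 libraries with no fold threshold. The SE of a log2 fold change was derived from it and the F statistic. For correlations the prior count of log2 CPM was 2. At most 3 counts in every library of a stage was taken as the limit of detection. The procedure was tested on simulated data. Positions are those of the deposited table, and exon overlaps and transcript lengths come from GENCODE vM21.

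The members and the gene lists were chosen with earlier results of these data known. Named were all members, their close relatives, genes whose exons overlap or whose body contains a member, from each other list the 3 called genes with the largest rise and fall in E12.5 vs. E10.5, and the 3 genes most correlated with each member. A few genes that this rule names are not reported here. Alternatives were DESeq2 1.42.0, its size factors, upper quartile scaling, other count filters, 1 fit on 9 libraries, the replicate block, removal of GC trends (lowess, span 0.3) alone or with the block, hemoglobin genes left out, other thresholds, and each library left out in turn. Tables and figures were made with Python 3.11.15, pandas 2.3.3, scipy 1.17.1 and matplotlib 3.10.9.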

Additional observations from a re-analysis of the deposited data

Results flagged for a closer look

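The 2 steps differed for Tnn, by a test of the difference itself. Its change in E12.5 vs. E11.5 minus that in E11.5 vs. E10.5 was −4.44 on the log2 scale (SE 0.81, adjusted p = 0.0244, edgeR's quasi-likelihood test on 9 libraries), from a change of 4.94 at the earlier step and 0.48 at the later one. The difference was −3.94 without E10.5 replicate 3, the library with the lowest sum of facial mesenchyme markers, with an adjusted p of 0.0173. It was not past the threshold without E11.5 replicate 1 or without E11.5 replicate 3. The E10.5 libraries held 5, 5 and 0 counts of Tnn, close to the limit of detection.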

How the results depend on the processing

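Of 492 values recomputed under the alternatives, 459 kept their direction and their side of the threshold, or, for values with no test, moved by less than the spread between replicates or, for counts of genes, by no more than 1.5 times. At the first step the number of upregulated members was 2, and it was 1 at an adjusted p of at most 0.01 and 1 with at least 10 counts required in every library. The latter filter takes out Tnmd and Tnn, so the whole span gave 2 in place of 4 and the difference between the steps 0 in place of 1. Of all genes tested under that filter, 2.82% were called higher at the first step and 7.99% over the whole span. With each library left out in turn, the range was 1 to 2 at the first step and 0 to 1 for the difference between the steps, lowest in both cases without E11.5 replicate 1 or replicate 3. Calls over all genes were fewer there too. Called higher at the first step were 1.45% without replicate 1 and 1.65% without replicate 3, in place of 3.46%. The difference between the steps was called for 31 of 16859 and 27 of 16887 genes, in place of 194 of 16375. Shares from raw counts in place of FPKM put Tnc at 77.9% and Tnn at 21.5% of the tenascins at E11.5, a change set by the gene lengths. Values near 0 changed sign when a library was left out. They were the Mkx change at the second step (−0.20 to 0.06, the latter being 0.056 without E12.5 replicate 1) and the Tnc difference between the steps (−0.77 to 0.21), and the cause was not tested.

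Libraries of the same number did not deviate from their stage means together in every pair (correlations over 16375 genes of −0.151 to 0.22), and 2, 1 and 5 of 6 libraries correlated best with their own number at the first step, the second step and over the whole span, so the numbers were not taken as pairs. With the replicate block, 2, 3 and 4 members were upregulated in these comparisons, as without it, and Tnc changed by 2.46, 2.22 and 4.71. With the GC trend removed and the block, Scx was also past both thresholds at the first step (1.01). An alternative added after seeing the data left out E10.5 replicate 3, and 13 of the list counts moved by over 1.5 times. Called lower over the whole span were 1 relative in place of 0, 5 signals (2), 1 receptor (2), 1 glial or neuronal (2), 0 epithelial (1) and 1 red blood cell gene (2), and called higher 1 muscle gene (0). Called lower at the first step were 1 receptor (2), 2 muscle (1), 0 cartilage (2) and 0 epithelial genes (1), and called higher 1 mesenchymal (2) and 2 epithelial genes (1). Depth limits statements on Tnr, Tnxb and, before E12.5, Tnmd.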

Other observations

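Markers of several other cell types changed beside the tendon-related genes in E12.5 vs. E10.5, in some lists in both directions. Cell numbers were not measured. Of all genes tested, 9.97% were called higher and 5.08% lower (10.4% and 6.23% without E10.5 replicate 3). Of 6 osteoblast lineage genes tested, 3 rose and 1 fell. Runx2 (4.49 on the log2 scale, SE 0.44) and Sp7 (4.10, SE 0.29), transcription factors of that lineage, and the alkaline phosphatase gene Alpl (1.25, SE 0.21) rose, and the bone sialoprotein gene Ibsp fell by 2.73 (SE 0.54). Of 10 cartilage genes tested, 4 rose and 2 fell. Matn4 went from 0 counts in every E10.5 library to 17.0 ± 2.37 CPM, at least 91.6-fold higher. The collagen genes Col9a2 and Col9a3 rose by 2.93 (SE 0.25) and 2.78 (SE 0.28), and the matrix genes Matn3 and Hapln1 fell by 2.38 (SE 0.36) and 1.29 (SE 0.27), the latter under the fold threshold without E10.5 replicate 3 (−0.94).

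Of 15 glial and neuronal genes tested, 7 rose, among them S100b (4.94, SE 0.85) and Stmn2 (2.61, SE 0.26). The S100b value is uncertain in size, on 0 to 2 counts per library at E10.5, at the limit of detection. In the same list 2 fell, Olig2 by 2.31 (SE 0.25) and Fabp7 by 1.13 (SE 0.32), the latter under the fold threshold without E10.5 replicate 3 (−0.77). Facial mesenchyme had 3 rises of 8 (Pdgfra 1.54, Msx1 1.23, Alx1 1.07), of which Alx1 was under the fold threshold without that library (0.92). Surface epithelium had 2 rises of 8, of the basal keratin genes Krt5 and Krt14 (3 without that library), and 1 fall, of Krt18, which was under the fold threshold without that library (−0.73). In the red blood cell list 4 of 9 rose, led by the adult globin gene Hbb-bs (4.65), and 2 fell, led by the embryonic globin gene Hbb-bh1 (by 2.43), with 3 and 1 in these directions without that library. None of the 6 endothelial genes was called by edgeR's quasi-likelihood test or by DESeq2, and 0 had an unadjusted p under 0.05, but their sum was 112 CPM in E10.5 replicate 3 and 287 and 281 CPM in replicates 1 and 2.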
